A study of Mus musculus with 2 samples.

Results

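The genes described here are 7 transcripts tied to the primary (azurophil) granules of myeloid precursors, taken by name from a table of 46095 genes: Mpo, Elane, Prtn3, Ctsg, Srgn, Ms4a3 and Hp. All 7 passed the minimum of 20 counts over both libraries, as did 13363 genes of the table. The series measured RNA of leukaemia-initiating cells from acute myeloid leukaemia (AML) in C57BL/6 mice aged 8 weeks, sorted from bone marrow as positive for Mac1 and c-Kit. One library has the genotype label wild type and a title ending Scr (below, the WT-labelled library), and the other has the genotype label P2x7-KO and a title ending KD (the KO-labelled library). P2rx7 encodes P2x7, a cation channel opened by extracellular ATP. For the driver of the leukaemia, the make of the P2x7 allele and the number of mice behind a library, nothing is given in the sources used here.

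Primary granules are made at the promyelocyte stage, when transcription of their contents peaks and then stops as neutrophils mature. Myeloperoxidase, the haem enzyme encoded by Mpo, makes hypochlorous acid, and the serine proteases encoded by Elane (neutrophil elastase), Prtn3 (proteinase 3) and Ctsg (cathepsin G) are stored beside it in active form. Serglycin, encoded by Srgn, is the proteoglycan whose charged side chains hold basic proteases in the granule. By textbook roles 5 of the 7 belong to this granule. Ms4a3 encodes a membrane-spanning protein of granulocyte-monocyte progenitors, and Hp encodes haptoglobin, which binds free haemoglobin and is held in neutrophil specific granules. In AML several of these genes are known as marks of myeloid differentiation.

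With 1 library per label there was no test between labels, no p-value and no replicate check. Intervals below are 95% counting intervals and cover counting error only. Total counts were 12456212 (WT-labelled) and 12435916 (KO-labelled). The targeted gene went against its label: P2rx7 had 229 counts in the WT-labelled library and 543 in the KO-labelled library, so the names of the libraries stand for their labels only. Of the sort genes, Kit had 559 and 861 counts and Itgam, which encodes the Mac1 alpha chain, 2274 and 6910. Fewer cells of a type and less RNA per cell cannot be told apart in such bulk libraries.

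The neighbouring genes Elane and Prtn3 both hold a pair of short motif cores before their RefSeq starts, which is why these stretches are shown first, with those of Mpo and Ctsg for comparison. Each is the 250 bases before the annotated start in RefSeq (build GRCm38.p6), written 5′ to 3′ on the gene's strand, and 6 of the 7 genes matched an entry. Capitals mark GAGGAA (a core of sites for PU.1, encoded by Spi1), AACGG (a core of MYB sites) and GCAAT (a core of C/EBP sites), searched on both strands. The motifs were chosen after the sequences were seen.
Elane, chr10:79886062-79886311, plus strand: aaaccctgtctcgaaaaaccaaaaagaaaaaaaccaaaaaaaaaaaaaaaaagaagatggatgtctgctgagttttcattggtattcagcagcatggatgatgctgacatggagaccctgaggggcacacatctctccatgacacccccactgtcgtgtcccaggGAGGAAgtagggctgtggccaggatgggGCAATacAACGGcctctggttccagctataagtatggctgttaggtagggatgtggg
Prtn3, chr10:79879417-79879666, plus strand: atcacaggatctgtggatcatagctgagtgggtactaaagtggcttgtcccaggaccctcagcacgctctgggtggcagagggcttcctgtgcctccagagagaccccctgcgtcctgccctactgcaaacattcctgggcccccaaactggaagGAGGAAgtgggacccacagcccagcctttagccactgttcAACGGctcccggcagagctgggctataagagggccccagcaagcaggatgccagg
Mpo, chr11:87793534-87793783, plus strand: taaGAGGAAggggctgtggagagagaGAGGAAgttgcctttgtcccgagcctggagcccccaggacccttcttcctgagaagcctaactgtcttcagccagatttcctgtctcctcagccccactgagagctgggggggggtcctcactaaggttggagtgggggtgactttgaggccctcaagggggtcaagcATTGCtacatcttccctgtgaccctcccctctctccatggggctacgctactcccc
Ctsg, chr14:56102575-56102824, minus strand: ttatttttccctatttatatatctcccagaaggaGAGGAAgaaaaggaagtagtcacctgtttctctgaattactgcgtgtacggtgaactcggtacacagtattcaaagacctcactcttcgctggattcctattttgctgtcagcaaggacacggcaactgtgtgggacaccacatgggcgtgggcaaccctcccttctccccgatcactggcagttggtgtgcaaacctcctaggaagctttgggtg
Elane held GAGGAA from 85 bases before its start and AACGG from 50 bases before, and Prtn3 held them from 95 and 55 bases before, in the same order and on the same strand. Elane also held GCAAT from 57 bases before, next to AACGG. Mpo held GAGGAA from 247 and 224 bases before and GCAAT on the other strand from 56 bases before, while Ctsg held GAGGAA alone, from 216 bases before. Among 32851 promoter entries of that length, 23.3% held GAGGAA, 14.5% AACGG, 23.1% GCAAT, and 3.33% held both GAGGAA and AACGG. The entries of Srgn and Ms4a3 held none of these letters in that window. Beyond the cores the stretches of Elane and Prtn3 were not especially alike: their longest shared run was 9 bases, the same as for Elane and Ctsg, against 10 for Mpo and Elane, 11 for Mpo and Prtn3 and 12, nearly all A, for Elane and one of the entries of Srgn. Distances are from the RefSeq starts, which for Elane, Prtn3 and Mpo, but not Ctsg, differ from the GENCODE spans given below. The GENCODE span of Elane opens between its GAGGAA and GCAAT, that of Mpo opens within the Mpo stretch, and the whole Prtn3 stretch lies inside the longer GENCODE span of Prtn3.

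**Figure D1:**
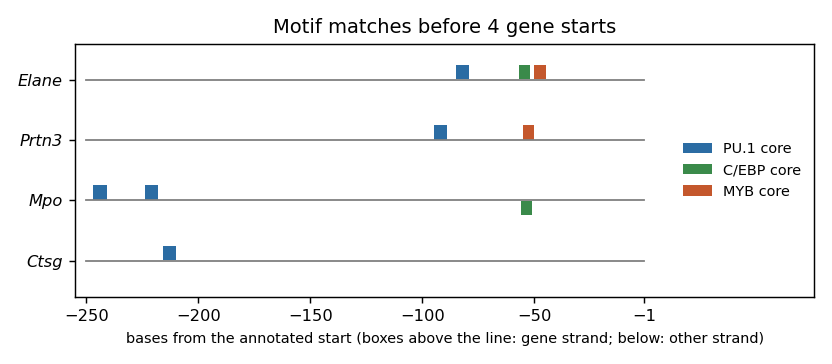
Matches to the 3 motif cores in the 250 bases before 4 gene starts, by distance from the RefSeq start in bases, with boxes above the line on the gene's strand and below it on the other. Elane and Prtn3 show a PU.1 core followed by a MYB core, from 85 and 50 bases and from 95 and 55 bases before their starts.

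The members split into 5 genes whose levels in the libraries lay close together and 2, Ctsg and Srgn, that were lower in the KO-labelled library. Levels are in CPM (counts scaled to 1000000 per library) with TMM scaling, which sets the bulk of genes level between libraries. Values are given for the WT-labelled library and then for the KO-labelled one. Mpo, on chromosome 11 from 87793581 to 87804413 (plus strand, GENCODE M21), had 11808 counts in the WT-labelled library and 12536 in the other, or 971 CPM (953 to 988) and 984 CPM (967 to 1002). Its ratio of P2x7-KO to wild type label was 1.01 (0.989 to 1.04). The Mpo intervals of the libraries overlapped.

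Elane, on chromosome 10 from 79886247 to 79888215 (plus strand), had 19673 and 20006 counts, or 1617 CPM (1595 to 1640.0) in the WT-labelled library and 1571 CPM (1549 to 1593) in the other. The Elane ratio was 0.971 (0.952 to 0.991), with a log2 value of -0.04 that total count scaling turned to 0.03. Prtn3, on chromosome 10 from 79874476 to 79883174 (plus strand), had 13993 and 15142 counts, or 1150.3 CPM (1131 to 1170) and 1189 CPM (1170.2 to 1208), a ratio of 1.03 (1.01 to 1.06). Elane and Prtn3 thus differed between libraries by a few percent, in opposite directions on this scale. Plppr3, on the other strand, overlaps the annotated span of Prtn3 and had 3165 and 2335 counts. Whether counting used strand is unknown here, so reads from the part where Prtn3 and Plppr3 overlap may not have been told apart.

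Ctsg stood apart from the other proteases. It lies on chromosome 14 from 56099881 to 56102574 (minus strand) and had 12461 counts in the WT-labelled library and 7484 in the KO-labelled library. That is 1024 CPM (1006 to 1043) against 588 CPM (574 to 601), with a ratio of 0.574 (0.557 to 0.590). Srgn, on chromosome 10 from 62493833 to 62527451 (minus strand), was also lower, at 10500 and 7621 counts, 863 CPM (847 to 880) and 598 CPM (585 to 612), a ratio of 0.693 (0.673 to 0.714). For Ctsg and Srgn the intervals of the libraries lay far apart, but neither gene reached a 2-fold difference.

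Ms4a3, on chromosome 19 from 11629496 to 11640851 (minus strand), was the least abundant member, at 1358 and 1416 counts. It stood at 112 CPM (106 to 118) and 111 CPM (105 to 117), with a ratio of 0.996 (0.924 to 1.07). Hp, on chromosome 8 from 109575128 to 109579172 (minus strand), had 18062 and 20592 counts, or 1485 CPM (1463 to 1507) and 1617 CPM (1595 to 1639), a ratio of 1.09 (1.07 to 1.11). Ms4a3 was level within its interval, and Hp was slightly higher in the KO-labelled library.

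**Figure D2:**
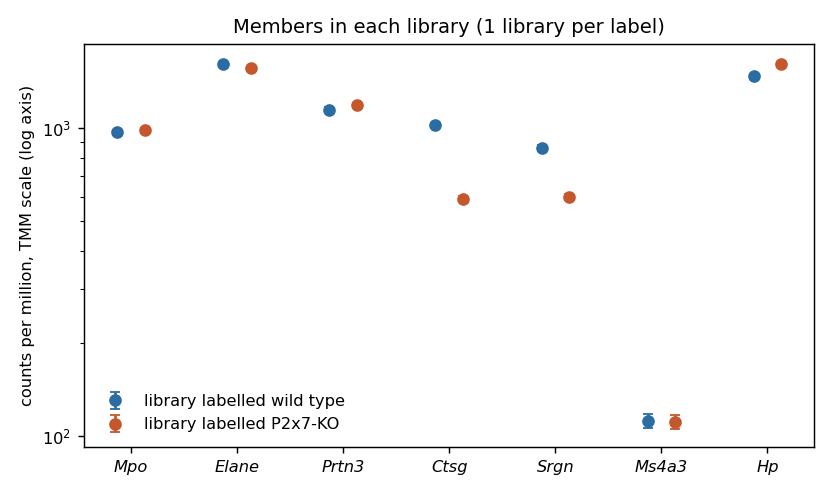
CPM on the TMM scale (log axis) of each member in the WT-labelled library (blue) and the KO-labelled library (orange), with bars for the 95% counting interval. Ctsg and Srgn show the widest gaps, 1024 against 588 and 863 against 598 CPM, while Ms4a3 sits near 111 CPM in both.

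By counts, 4 members ranked among the 100 most abundant genes of the WT-labelled library: Elane (rank 47), Hp (54), Prtn3 (82) and Ctsg (96). In the KO-labelled library 4 did again, with Hp at rank 21, Elane at 23, Prtn3 at 54 and Mpo at 79, while Ctsg stood at 176. Together the 7 took 0.705% of counts (0.701 to 0.710, Clopper-Pearson) in the WT-labelled library and 0.682% (0.677 to 0.686) in the other. The 5 granule genes without Ms4a3 and Hp took 0.549% (0.545 to 0.554) and 0.505% (0.501 to 0.509).

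Levels of different genes can be compared only per length, so CPM was divided by the longest transcript in kilobases. In the WT-labelled library the order was Elane at 1644 CPM per kilobase, Prtn3 at 1122, Hp at 1104, Ctsg at 1022, Srgn at 499.8, Mpo at 353 and Ms4a3 at 111. Of these neighbours, Prtn3 (1104 to 1141) and Hp (1088 to 1120.2) had overlapping intervals. In the KO-labelled library the order was Elane at 1597, Hp at 1202, Prtn3 at 1160.1, Ctsg at 587, Mpo at 358, Srgn at 347 and Ms4a3 at 110.1 CPM per kilobase. There Mpo (352 to 364) and Srgn (339 to 354) overlapped. Mpo, the longest member at 2750 bases, thus ranked lower per length than by counts, below Elane, Prtn3 and Ctsg in both libraries.

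None of the 7 members was called 2-fold apart, where a call needs a ratio of 2 or more in either direction and an interval that excludes 1. Over all 13363 genes, 19.8% were called, 10.8% higher and 8.95% lower in the KO-labelled library. Among the 5444 genes with at least 1000 counts, as all members have, 11.4% were called. In that group 17.2% lay within 1.1-fold of equality, against 5 of the 7 members, a range chosen after the values were seen. The counting interval excluded equality for 5 members, but it did so for 85.3% of genes that abundant, so an interval apart from equality is common at this depth. The median log2 ratio of the members was -0.01, against 0.00 over all genes, and their mean was -0.17.

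A ratio between members within a library does not depend on the scaling between libraries. Of the 21 pairs, 17 had a ratio that differed between the libraries beyond counting error, and 6 differed by at least 1.5-fold. All 6 set Ctsg or Srgn against another member. The 21 pairs are built from the ratios of only 7 genes and so repeat them. The share among pairs of other genes was not computed, and single ratios excluded equality for 85.3% of genes with at least 1000 counts. Mpo had 0.948 counts for each Ctsg count in the WT-labelled library and 1.68 in the other, a 1.77-fold difference (1.70 to 1.84). Prtn3 against Ctsg moved 1.80-fold (1.74 to 1.87), from 1.12 to 2.02, and Elane against Ctsg 1.69-fold (1.64 to 1.75), from 1.58 to 2.67. Without adjustment Hp against Ctsg differed most among the pairs, 1.90-fold (1.83 to 1.97). With the adjustment for length and GC content described below, 10 pairs were at least 1.5-fold apart, all of them again with Ctsg or Srgn, and Prtn3 against Srgn differed most, 2.66-fold (2.56 to 2.76) where it had been 1.49-fold. By contrast Mpo against Prtn3 stood at 0.844 and 0.828, a ratio of 0.981 (0.948 to 1.02) whose interval includes equality.

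The 3 serine proteases therefore made up a different mix in each library. Ctsg took 27.0% (26.6 to 27.4) of their 46127 counts in the WT-labelled library and 17.6% (17.2 to 17.9) of 42632 in the KO-labelled library. Elane took 42.6% (42.2 to 43.1) and 46.9% (46.5 to 47.4), and Prtn3 30.3% (29.9 to 30.8) and 35.5% (35.1 to 36.0). The share of Ctsg was thus smaller in the KO-labelled library. Shares of the same total offset each other, so the larger shares of Elane and Prtn3 are no separate result. On the TMM scale the ratios of Elane and Prtn3 were 0.971 and 1.03.

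Transcript length and base composition moved with the ratios of all genes. Over 12374 genes with a transcript model, the median log2 ratio ran from -0.72 in the tenth with the shortest transcripts to 0.65 in the tenth with the longest. Elane, Prtn3, Ctsg, Ms4a3 and Hp, at 984 to 1345 bases, fall in a bin of 1236 genes of 889 to 1414 bases with a median of -0.41. In that bin 12.6% of genes were called lower and 4.61% higher. Elane, Prtn3, Ms4a3 and Hp thus lay above the middle of genes of like length, and Ctsg, at -0.80, below it. Srgn, at -0.53 with 1727 bases, lay below its bin's median of -0.26, and Mpo, at 0.02, near its bin's -0.05.

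**Figure D3:**
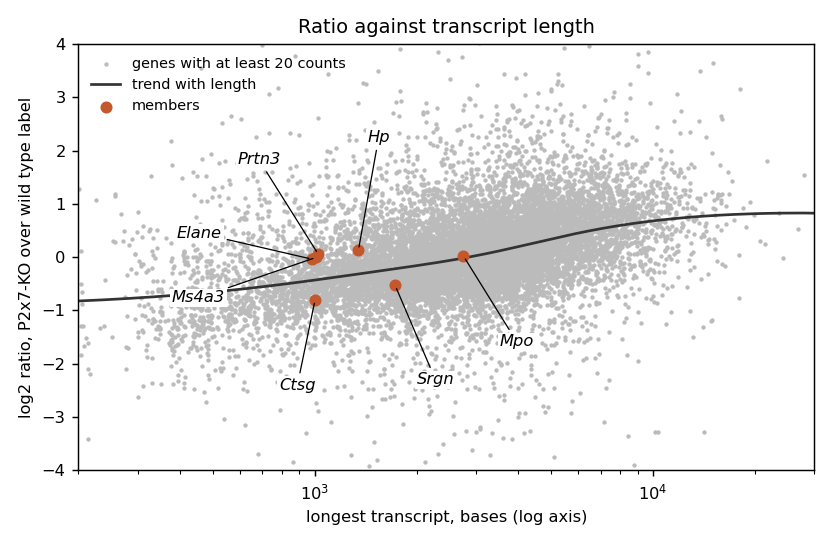
Log2 ratio of P2x7-KO to wild type label against longest transcript length in bases (log axis) for genes with at least 20 counts (grey), with the fitted trend (line) and the members (orange); 148 genes lie outside the axes. The trend climbs with length, and Ctsg (-0.80) and Srgn (-0.53) lie below it while Elane, Prtn3, Ms4a3 and Hp lie above.

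After a smooth fit on length and GC content was subtracted, 5 members stood above equality and Ctsg and Srgn below it, while 45.1% of genes with at least 1000 counts stood above. The adjusted ratio was 1.75 for Prtn3 (1.71 to 1.79), 1.51 for Elane (1.48 to 1.54), 1.51 for Hp (1.48 to 1.54), 1.19 for Mpo (1.16 to 1.22) and 1.17 for Ms4a3 (1.08 to 1.26). Ctsg stood at 0.752 (0.731 to 0.774) and Srgn, with the lowest GC content of the members at 42.8%, at 0.659 (0.640 to 0.679). None of the 7 was called on this scale, where 13.2% of genes were (7.73% higher and 5.44% lower), and 0 of the 7 stayed within 1.1-fold of equality. The near-level values of Mpo, Elane, Prtn3, Ms4a3 and Hp thus hold only without this adjustment, whereas Ctsg and Srgn were lower in the KO-labelled library with and without it. The source of the length and GC trend was not tested.

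**Figure D4:**
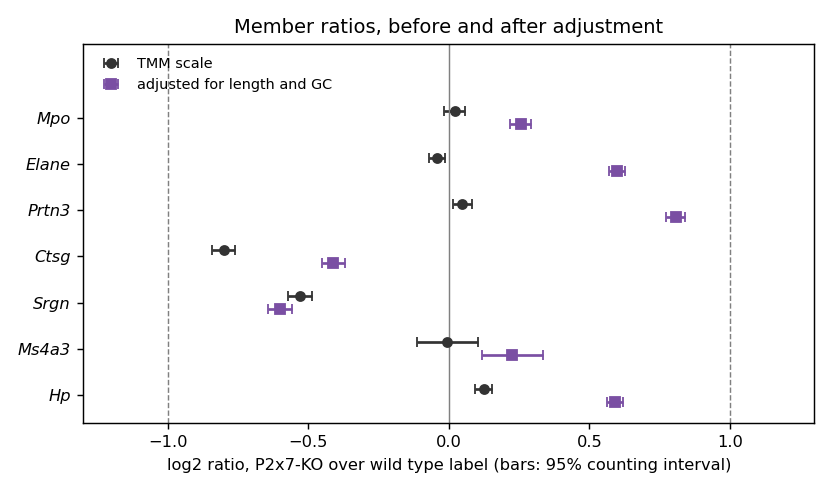
Log2 ratio of P2x7-KO to wild type label for each member on the TMM scale (black) and adjusted for length and GC (purple), with 95% counting intervals and dashed lines at 2-fold. No member reaches a dashed line on either scale, and Prtn3 shifts most, from 0.05 to 0.81.

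Several genes beside the members on the chromosome were near silent in both libraries. Lpo, the lactoperoxidase gene next to Mpo, had 0 and 1 counts, and Mir142b on its other side 5 and 2. Cfd, the complement factor D gene 2638 bases beyond Elane, had 7 and 6 counts, and Ptbp1, a splicing regulator gene on the other side of Prtn3, 10105 and 9801. The genes flanking Ctsg encode related proteases: Mcpt8, a basophil protease gene, had 268 and 196 counts, a ratio of 0.699 (0.578 to 0.843), and Gzme, a granzyme gene, had 0 in both. Ms4a2, which encodes the beta chain of the IgE receptor and lies beside Ms4a3, had 13 and 11 counts, and Oosp2 on its other side 0 in both. Beside Srgn, Vps26a had 1080 and 1437 counts and Kif1bp 390 and 401. Txnl4b and Dhodh beside Hp had 314 and 272, and 623 and 377.

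Of 19 other serine protease genes of the granule type, 3 were counted. Prss57, another azurophil granule protease gene, had 2676 counts in the WT-labelled library and 1235 in the other, and was 2.27-fold lower (2.12 to 2.43) in the KO-labelled library. It was the 1 gene of the 3 called, and it stayed called after adjustment for length and GC content, at a log2 ratio of -1.06. Mcpt8 (-0.52) and Gzmm (-0.64), at 24 and 16 counts, were not called. Prss57 and Ctsg were thus both lower by over 1.5-fold on the TMM scale, on which the ratios of Elane and Prtn3 were 0.971 and 1.03.

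Proteases reach their active form through cathepsin C and are held in check by inhibitors. Of 9 counted genes for activation and inhibition, 1 was called higher and 0 lower, with a median log2 ratio of -0.35 that adjustment for length and GC content turned to 0.17. The gene called was Serpina3g, a serpin gene at 17 and 42 counts (2.36-fold higher, 1.32 to 4.42). Ctsc, the cathepsin C gene, named here for its role after its value was seen, had 52.9 and 95.7 CPM, 1.81-fold (1.64 to 1.99). Serpinb1a, whose product inhibits all 3 proteases, stood at 407 and 302 CPM, a ratio of 0.742 (0.711 to 0.774). The secreted elastase inhibitor gene Slpi stood at 948 and 742 CPM, the stefin gene Stfa1 at 663 and 493, and the cystatin C gene Cst3 at 292 and 304. The Ctsc and Serpinb1a values thus pointed opposite ways, and neither was called.

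Other contents of primary granules lay on either side: 3 of 19 counted were called higher and 1 lower, with a median of -0.06 that total count scaling turned to 0.01 and adjustment to 0.04. After adjustment 2 were called higher and 1 lower. Lyz2, the lysozyme gene that monocytes also express, had 541 and 1132 CPM (2.09-fold, 2.03 to 2.16). Prss57 was the gene called lower. Man2b1, the lysosomal alpha-mannosidase gene, was level at 1372 and 1316 CPM, and the cathepsin genes Ctsb, Ctsz and Ctsd had ratios of 1.28, 0.562 and 0.965.

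Myeloperoxidase folds with calreticulin and calnexin in the endoplasmic reticulum and needs haem to mature. Of 13 such genes counted, 0 were called higher and 2 lower, with 3 above equality and a median of -0.46. Calr stood at 2579 and 1252 CPM, 2.06-fold lower (2.02 to 2.10), and Alad, a haem synthesis enzyme gene, at 34.7 and 17.0 CPM, 2.04-fold lower (1.72 to 2.41). Both were short of 2-fold when scaled by total counts (-0.97 and -0.96), Alad also with that of DESeq2 (-0.99), and both after adjustment (-0.98 and -0.43), where Hspa5, an endoplasmic reticulum chaperone gene, was called instead at -1.08. Alas1, the first enzyme of haem synthesis, had a ratio of 0.728 (0.703 to 0.754), Pdia3 0.864 and Canx 1.13. On the TMM scale Mpo itself was level while the middle of this list lay lower. After adjustment the log2 ratio of Mpo was 0.25 and the median of the list -0.33.

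Serglycin needs enzymes that build and sulphate its side chains. Of 11 counted, 1 was called higher and 1 lower, with a median of -0.19 that adjustment turned to 0.11. Xylt1, which starts the chain, had 105 and 251 counts (2.28-fold, 1.81 to 2.90), and Chpf, a chondroitin polymerase gene, 39 and 12 (3.40-fold lower, 1.75 to 7.14). After adjustment Xylt1 was no longer called (1.19 became 0.64) and Chpf still was (-1.28). Chst12, Csgalnact2, Chsy1 and B3gat3 had ratios of 0.874, 1.45, 0.744 and 0.816. Of 16 counted genes of granule sorting and release, 1 was called higher, with a median of 0.21. After adjustment the median over the 15 with a length was 0.03 and 0 were called. That gene was Lyst, the lysosomal trafficking regulator gene, at 81.2 and 264 CPM (3.25-fold, 3.02 to 3.49), whose log2 ratio of 1.70 came under 2-fold after adjustment (0.89). Stx11 passed 2-fold with total count scaling (1.02), as did Clec11a (1.01), a growth factor gene that the list also holds. Rab27a, Stxbp2, Ap3s1 and M6pr had ratios of 1.20, 0.803, 1.11 and 1.01.

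Of 14 regulators known at granule gene promoters, 1 was called higher and 0 lower (median -0.08). It was Gabpa, an ETS factor gene (2.16-fold, 1.95 to 2.39), which came under 2-fold after adjustment (0.54). Spi1 had 502 and 482 CPM, a ratio of 0.960 (0.927 to 0.995), and Myb had 946 and 850, a ratio of 0.898 (0.875 to 0.922). Irf8 and Cux1 had ratios of 1.15 and 0.845. The C/EBP genes, named after their values were seen, lay on both sides. Cebpe, a factor gene of the late promyelocyte, stood at 214 and 113 CPM, a ratio of 0.526 (0.493 to 0.561), and its log2 ratio of -0.93 became -0.21 after adjustment. Cebpb stood at 112 and 211 CPM, a ratio of 1.88 (1.76 to 2.01), and was the 1 gene of the list called after adjustment, where its log2 ratio of 0.91 became 1.64. Cebpa had a ratio of 1.25 (0.82 on the log2 scale after adjustment) and Cebpd a log2 ratio of -0.10. After adjustment Spi1 stood at 0.38 and Myb at -0.41. These are values from 1 library each and do not tie the factors to the genes.

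Secondary and tertiary granule genes, switched on after the promyelocyte stage, had 5 of 16 counted called higher and 0 lower (median log2 ratio 0.60), where 10.8% and 8.95% of all genes were. The difference between this list and the members was not tested. Cybb, the oxidase subunit gene, was 4.98-fold higher (4.71 to 5.28), Mmp8 3.89-fold (3.37 to 4.50), Olfm4 2.98-fold (2.86 to 3.11), Slc11a1 2.40-fold (1.89 to 3.05) and Adam8 2.10-fold (1.79 to 2.46). Chil3, Ngp, Itgb2 and Camp, not called, had ratios of 1.34, 1.41, 1.84 and 0.753. Of the 16 genes, 12 stood above equality. Ltf, Cyba and Pglyrp1, named after their values were seen, lay below it like Camp, at ratios of 0.601, 0.778 and 0.794. After adjustment Ltf stayed below equality (-0.71), while Camp, Cyba and Pglyrp1 stood above it (0.20, 0.46 and 0.45). On that scale 7 genes of the list were called higher, Lcn2 and Mmp9 now among them (1.17 and 1.05), and 0 lower. Hp, which shares the specific granule, had a log2 ratio of 0.12, or 0.59 after adjustment, where the list's median was 0.92.

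**Figure D5:**
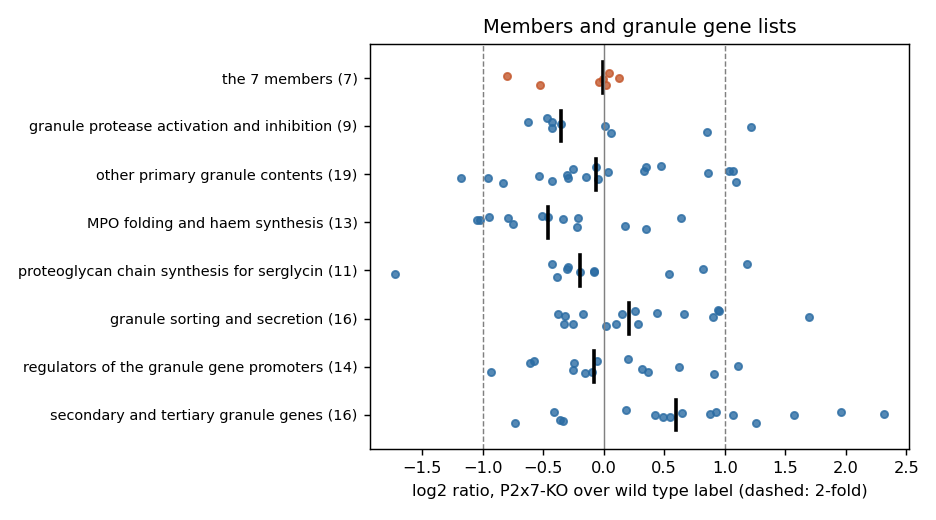
Log2 ratio of P2x7-KO to wild type label for the 7 members (orange) and the counted genes of 7 related lists (blue, number of genes in brackets), with bars at the medians and dashed lines at 2-fold. The members centre at -0.01 with Ctsg and Srgn below, the haem and folding list at -0.46 and the secondary and tertiary granule list at 0.60.

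Of 8 counted relatives of Ms4a3 in the MS4A family, 2 were called higher, Ms4a4a (12 and 35 counts) and Ms4a8a (16 and 50), and 0 lower. Ms4a6c, the most abundant relative, had 154 and 226 CPM, a ratio of 1.47 (1.39 to 1.56), against 0.996 for Ms4a3. Of 18 promyelocyte and progenitor markers, 5 were called higher and 1 lower, with a median of 0.23 that became 0.12 after adjustment. Cd33 (5.86-fold), Mgst1 (2.87-fold), Cd93 (2.57-fold), Clec5a (2.06-fold) and the receptor gene Csf2rb (2.02-fold) were higher and Nkg7 was 3.06-fold lower. Csf2rb came under 2-fold with upper quartile scaling (log2 ratio 0.98), and Csf3r, the granulocyte growth factor receptor gene, passed it with total count and DESeq2 scaling (1.05 and 1.02). After adjustment 3 markers were called higher, Cd33, Mgst1 and Csf3r (1.91, 1.65 and 1.02), while Cd93 (0.81), Clec5a (0.59) and Csf2rb (0.86) came under 2-fold. Hk3, Rab44, Flt3 and Gstm1 had ratios of 0.710, 0.583, 1.02 and 0.628.

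Markers of other cell types differed between the libraries too, and their part in the values of Ctsg, Srgn and the other members was not tested. The summed level of 10 mast cell and basophil markers was 521 CPM in the WT-labelled library and 112 in the other, with Cpa3 and Hdc called lower, Gata2 also with upper quartile scaling and without the ribosomal and mitochondrial genes (-1.03 and -1.003), and the defining genes Fcer1a, Tpsb2 and Cma1 at 0 in both. That of 14 monocyte and macrophage markers was 1736 and 4157 CPM, with 8 of 14 called higher. Mature neutrophil markers summed to 2310.5 and 1679 CPM (0 of 8 counted called higher, 2 lower: S100a8 and Retnlg), and eosinophil markers to 88.0 and 78.1 CPM (1 of 4 higher, Ear2), with Ear6 at 0 in both and Epx at 0 and 2 counts. Erythroid markers summed to 16 and 142 counts (2 of 2 called higher), B and plasma cell markers to 1603 and 1264 counts (2 of 4 higher, 1 lower), and T and NK markers to 4 and 39 counts (0 counted), with Trac and Ncr1 at 0 in both. A sum follows its most abundant genes. The mature neutrophil, eosinophil and B and plasma cell sums were lower in the KO-labelled library, but their median log2 ratios were 0.66, 0.19 and 1.23. Ighm (892 and 395 counts) was the B and plasma cell gene called lower, and Igkc (20 and 122) and Jchain (5 and 55) were called higher.

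For each member the gene with the most similar pair of levels was found among 5145 protein-coding genes with at least 1000 counts, by distance between log2 CPM values over the 2 libraries. Elane and Hp were each other's nearest, 0.13 apart. Mpo lay nearest Ly6c2 (0.05), Prtn3 nearest Hnrnpu (0.02), Ctsg nearest Hspa5 (0.0085), Srgn nearest Tyrobp (0.018) and Ms4a3 nearest Tprgl (0.019). With only 2 libraries many genes lie close: 758 were within 0.5 of Ms4a3, and 14 to 45 of each other member.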

How the data were processed

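RNA was sequenced from 2 libraries, 1 per genotype label. The authors deposited raw counts per gene; the submitters' processing notes name HISAT2 2.0.4 and mm10, and for the counting program, annotation, strand setting and multiply matching reads nothing is given in the sources used here. All value columns were used. Counts were scaled by TMM in edgeR 4.0.16 (R 4.3.3), and CPM intervals are exact Poisson. Ratios have exact intervals from the Clopper-Pearson share of a gene's counts, pair ratios exact conditional intervals, and log2 ratios 0.5 added to each count. Reads are not independent molecules. Genes under 20 counts over both libraries were not called, and 3 counts is the limit for a gene at 0 (0.247 and 0.236 CPM). Length and GC content came from the longest GENCODE M21 basic transcript, matched by symbol for 92.6% of counted genes, with a smooth fit in mgcv 1.9.3. On simulated Poisson counts 93.8% of 48 genes lowered to a ratio of 0.4 and 0.364% of 13172 unchanged genes were called. These counts had no spread between libraries beyond counting and no length trend. They give no rate of false calls for the real libraries.

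The members and the 17 lists (226 entries, 1 name not found) were chosen with earlier results of these data known. Named genes are the members, P2rx7, Kit and Itgam, flanking genes, the most similar gene per member, and of each list all called genes up to 6 and up to 4 uncalled genes with the most counts; of the marker lists mostly sums are given. A few listed genes are not reported here. Alternatives were other scalings (total count, DESeq2 1.42.0, upper quartile), other minimums, adjustment for length or for length and GC, and a scaling without 97 ribosomal protein and mitochondrial genes.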

Additional observations from a re-analysis of the deposited data

How the results depend on the processing

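No paired analysis was possible because each label has 1 library. No member was called 2-fold apart under any of the 8 alternatives of scaling, minimum count, gene class or adjustment. The other minimums could not change a call, because the least abundant member, Ms4a3, had 2774 counts over both libraries. The other scalings moved every log2 ratio alike, by 0.07 at most, so they could hardly change a call either. Across the scalings the log2 ratio ran from -0.83 to -0.73 for Ctsg and from -0.56 to -0.46 for Srgn, and those of Mpo (-0.01 to 0.09), Elane (-0.08 to 0.03) and Ms4a3 (-0.04 to 0.06) took either sign. The median log2 ratio of the 7 members, -0.01, became 0.40 after adjustment for length alone and 0.25 for length and GC content. The summed share of the members became 0.791% and 0.729% of counts (wild type and P2x7-KO label) without ribosomal protein and mitochondrial genes in the total, and 0.549% and 0.505% with the 5 granule genes alone. Adjustment for length and GC content turned 4 of the 21 pair ratios: Mpo over Elane from 1.04 to 0.789, Elane over Hp from 0.892 to 1.004, Prtn3 over Hp from 0.949 to 1.16 and Ctsg over Srgn from 0.827 to 1.14. The adjusted interval of Elane over Hp (0.976 to 1.03) includes equality, so that pair became level within counting error. Depth limits the low neighbours and relatives, such as Lpo, Cfd and Ms4a2, and the marker lists, of which 0 of 8 T and NK, 2 of 8 erythroid, 4 of 9 eosinophil and 5 of 10 mast cell and basophil markers reached the minimum count, while variation between mice, sorts and preparations is not measured.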
